A study of Mus musculus with 2 samples.

Results

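The distal Dlk1-Dio3 miRNA cluster is a run of miRNA genes on the plus strand of mouse chromosome 12, from Mir379 at its 5′ end to Mir410 and Mir3072 at its 3′ end. Its members were chosen by position alone: every plus-strand GENCODE M21 miRNA gene lying wholly inside the window that holds this run was taken, whatever its level. That gave 39 genes among the 2202 miRNA genes measured, spread over 38.901 kb of mm10 from chr12:109709060 to chr12:109747960. They were measured by microRNA-seq, which sequences short RNA, in adrenal gland of male B6CASTF1/J mice, an F1 hybrid, at 14 days of age. There was 1 group with 2 libraries, numbered as biological replicates 1 and 2, and no second condition. Each library came from its own biosample, each biosample names 3 males and both share 1 donor record. It is therefore not known from these labels which animals, or how many, stand behind a library. SDs measure only the spread between these libraries, which may be technical, and p-values of the binomial test cover counting error only.

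The cluster belongs to an imprinted domain. Its non-coding RNAs, Meg3, Rian, Mirg and the miRNAs, are made from the maternally inherited chromosome, whereas Dlk1, Rtl1 and Dio3 are made from the paternal one. The miRNAs are thought to be cut from a long shared transcript. Drosha releases the hairpins from it, and Dicer then cuts each hairpin, which can yield a 5p and a 3p mature miRNA. A mature miRNA finds its target mRNAs mainly through its seed, the bases near its 5′ end. The cluster is best known from neurons and from the metabolic changeover of the newborn, which its loss on the maternal chromosome impairs.

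RefSeq (build GRCm38.p6) gave a mature sequence for 38 of the 39 members, 71 sequences in all. Those of the 6 most abundant genes are shown first, because these genes carry most of the signal. They are written 5′ to 3′ with the seed, bases 2 to 8, in capitals. The counts are per hairpin, so which of the arms was sequenced is not known from them.
miR-411-5p: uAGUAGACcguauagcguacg
miR-411-3p: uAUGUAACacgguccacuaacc
miR-379-5p: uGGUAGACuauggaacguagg
miR-379-3p: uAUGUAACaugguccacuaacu
miR-541-5p: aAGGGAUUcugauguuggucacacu
miR-541-3p: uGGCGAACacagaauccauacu
miR-382-5p: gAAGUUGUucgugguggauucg
miR-382-3p: uCAUUCACggacaacacuuuuu
miR-409-5p: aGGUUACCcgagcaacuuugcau
miR-409-3p: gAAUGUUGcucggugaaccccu
miR-376a-5p: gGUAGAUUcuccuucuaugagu
miR-376a-3p: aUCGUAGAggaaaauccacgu

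The 71 mature sequences held 65 different seeds, so most members offer a seed that no other member has. Among these listed sequences only 6 seeds were shared, each by 1 pair of genes. For Mir376c, Mir487b, Mir539, Mir485 and Mir453 only 1 sequence was listed, so any seed of their other arm is not in this comparison. The leading pair is linked in this way: miR-379-3p and miR-411-3p both carry AUGUAAC, and miR-379-5p shares GGUAGAC with miR-1193-5p. The partners are printed so that the shared seeds can be set against the levels given further on. Mir410 and Mir494 share GGUUGUC, Mir453 and Mir496a share GGUUGCC, Mir758 and Mir1197 share GGUUGAC, and Mir376b and Mir376c share UGGAUAU.
miR-1193-5p: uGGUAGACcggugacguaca
miR-494-5p: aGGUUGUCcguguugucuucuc
miR-410-5p: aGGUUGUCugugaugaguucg
miR-496a-5p: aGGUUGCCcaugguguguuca
miR-453: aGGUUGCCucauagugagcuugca
miR-758-5p: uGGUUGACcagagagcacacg
miR-1197-5p: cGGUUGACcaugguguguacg
miR-376c-5p: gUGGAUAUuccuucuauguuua
miR-376b-5p: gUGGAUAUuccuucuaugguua

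None of these 6 shared seeds occurred in a RefSeq mature miRNA outside the cluster. Of the 71 mature sequences, 11 had a seed found elsewhere, among them miR-411-5p, miR-329-3p and miR-410-3p. The hairpins also repeat short stretches around the mature arms. The letters UACUUG occurred in 10 of 39 member hairpins (25.6%) and in 1.90% of the 2163 other miRNA hairpins of GENCODE M21. For AGUAUC the shares were 17.9% of members and 1.57% of the others. Inside the arms, GGUUGACC occurred in the hairpins of Mir380, Mir1197, Mir758, Mir134 and Mir154 and in 0 of the others. These motifs were searched on the strand of the gene only and were picked by eye from the sequences, so their shares are a description.

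Close sequence matters for counting, since a read that fits several places is given to no gene. Of the 39 members, 5 shared a stretch of 20 bases or more with another miRNA gene, against 49.4% of all 2202. In each case the other gene was itself a member: Mir376b matched Mir376c over 31 bases and Mir487b over 20, and Mir411 matched Mir758 over 21. The stretch of Mir376b and Mir376c covered 18 of the 22 bases of their 5p arms, and that of Mir411 and Mir758 reached 12 of the 22 bases of miR-411-3p. None of the mature sequences listed for members had an exact copy in another miRNA gene. Reads from inside these stretches are in no gene, and their number is not known.

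Replicate 1 held 3024662 sense counts over all miRNA genes and replicate 2 held 3464837, so 3 counts, the limit taken for a gene with none, equal 0.992 and 0.866 CPM. CPM is the usual depth-scaled count, here the sense count relative to the sum of sense counts over all miRNA genes. Multimapping reads, 27.5% and 29.4% of the file, are in no gene. Markers of several cell types were looked up, and some differed widely between the libraries while others differed little. Mir122 of hepatocytes was 3786 CPM in replicate 1 and 49475 in replicate 2, while Mir126a of endothelium was 155646 and 94732. The red cell pair Mir451a and Mir144 summed to 43922 and 19179 CPM. Mir451a made this difference, at 41828.5 and 17126 CPM, whereas Mir144 was nearly level at 2093 and 2053. White blood cell markers summed to 2982 and 1475 CPM. Of these, Mir142 (2223 and 825) and Mir150 (729 and 560) were lower in replicate 2, whereas Mir223 was higher (31.1 and 89.5). Mesenchymal markers summed to 52373 and 44598 CPM, with Mir143 at 51309.5 and 43537 and Mir145a nearly level at 1064 and 1062. Markers of striated muscle, with 1 of 5 detected, summed to 6.28 and 9.52 CPM. The pair Mir132 and Mir212, taken as a pituitary and neural list though not known to be limited to such cells, summed to 506 and 441 CPM. The neuroendocrine list, 4 of 4 detected, summed to 31136 and 34282 CPM, led by Mir375. The list for brain neurons summed to 45.0 and 89.5 CPM with 3 of 10 detected and Mir124a-2, Mir124a-3 and Mir9-2 at 0 in both libraries, but all 10 share a stretch with another miRNA gene, as do 4 of the 5 muscle genes, so these low counts do not show that RNA of neurons or muscle was absent.

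On this scale the cluster as a whole gave nearly the same level in both libraries. Its members summed to 37553 CPM in replicate 1 and 37932 in replicate 2, a mean of 37743 ± 268 (SD, n = 2). As a share of all miRNA counts this was 3.76% (exact 95% interval 3.73 to 3.78) and 3.79% (3.77 to 3.81). These and all other intervals cover counting error only. In bulk tissue, fewer cells of a type and less RNA per cell cannot be told apart. With detection set at 2 CPM or more in each library, 34 of the 39 members were detected (87.2%), against 16.5% of all 2202 miRNA genes, and 25 members reached a mean of 100 CPM, against 8.58% of all. The other plus-strand miRNA genes between Dlk1 and Dio3, 20 genes that lie upstream around Meg3 and Rtl1, summed to 22649 ± 1119 CPM with 16 detected. The distal cluster therefore held 1.60 times their counts in replicate 1 and 1.74 times in replicate 2.

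**Figure D1:**
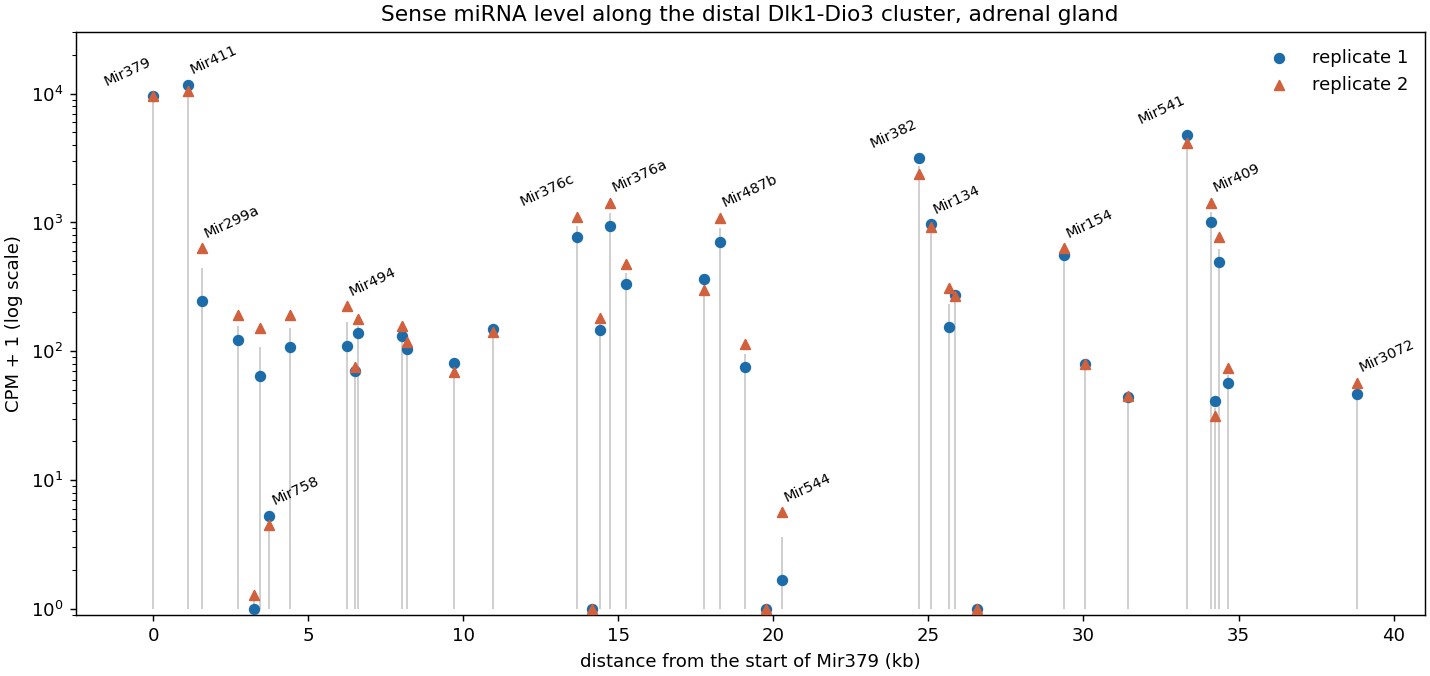
Level of each of the 39 members (CPM + 1, log scale) against distance in kb from the start of Mir379, with circles for replicate 1, triangles for replicate 2 and grey lines to their mean. Mir379 and Mir411 at the 5′ end, and Mir382 and Mir541 towards the 3′ end, stand above the rest, and 3 members without a count in either library lie on the baseline.

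The first 2 genes of the run were the highest. Mir411 (chr12:109710175-109710256) was 11712 CPM in replicate 1 and 10434 in replicate 2. Mir379 (chr12:109709060-109709125), whose miRNA is known from the liver as a target of the glucocorticoid receptor, was 9530 and 9553 CPM. Mir411 exceeded Mir379 in both libraries and their ranges did not overlap. Together they held 56.6% of the cluster's counts in replicate 1 and 52.7% in replicate 2. GENCODE M21 places neither in a host gene, and 25 of the 39 members, all those upstream of Mirg, have no annotated host on their strand.

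Directly downstream the level dropped. Mir299a, 1.58 kb from the start of Mir379, was 246 CPM in replicate 1 and 631 in replicate 2. Mir380, whose 5p arm carries the GGUUGACC letters, was 121 and 189 CPM. Mir323 was 63.1 and 152 CPM. For all 3 the value of replicate 2 was the higher one, and none came near Mir411, which begins 1.11 kb from the same start. Mir758, which shares sequence with Mir411, stood at 4.30 and 3.46 CPM, from 13 and 12 counts. Mir1197 had 0 counts in replicate 1 and 1 in replicate 2, which is below the limit of 3 counts.

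From Mir329 to Mir667 the run held genes of modest and similar level. Mir329, whose miRNA acts with miR-134 and miR-381 in dendrite growth of neurons, was 108 CPM in replicate 1 and 192 in replicate 2. Mir494 was 109 and 223 CPM. Mir1193, the seed partner of Mir379, was 137 and 177 CPM, far below Mir379. Mir543, which together with miR-369 and miR-496 is reported to repress N-cadherin in neural progenitors, was 102 and 117 CPM. Mir666 was 130 and 157 CPM and Mir667 149 and 141. Mir679 and Mir495 stayed under 100 CPM in both libraries. The 13 genes after Mir411 and before Mir376c, a stretch delimited after the values were seen, held 3.51% and 5.60% of the cluster's counts.

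The miR-376 genes, known for A-to-I editing of their seeds, opened a higher stretch. Mir376a (chr12:109723781-109723848) was 931 CPM in replicate 1 and 1420 in replicate 2. Mir376c was 776 and 1110 CPM. Mir376b, between them, was 145 and 182 CPM, so it was the lowest of the 3 genes in both libraries. It shares stretches with both Mir376c and Mir487b, and whether this affected its count was not tested. Mir654, also between them, had no count in either library.

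Next to them stood Mir300, Mir381 and Mir487b. Mir300 was 334 CPM in replicate 1 and 478 in replicate 2. Mir381, whose miRNA takes part in dendrite growth, was 361 and 296 CPM. Mir300 and Mir381 thus exchanged order between the libraries. Mir487b (chr12:109727333-109727414) was 707 and 1089 CPM, and Mir539 74.4 and 114. Mir544 gave 2 and 16 counts, and Gm27379 gave none. From Mir376c to Mir544 the genes held 8.86% and 12.4% of the cluster's counts.

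The 3′ part of the run lies in the long non-coding RNA Mirg (chr12:109729764-109749460). Of the 14 members there, 9 overlap an annotated exon and 5 lie in an intron. Mir541, in an intron (chr12:109742409-109742498), was 4809 CPM in replicate 1 and 4147 in replicate 2. Mir382, in an exon (chr12:109733771-109733846), was 3144 and 2375 CPM. They ranked after Mir411 and Mir379 in both libraries, and no range among these 4 genes overlapped another. The 4 genes held 77.7% of the cluster's counts in replicate 1 and 69.9% in replicate 2.

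Around Mir382 and Mir541 the levels were lower and mixed. Mir409, in an intron (chr12:109743158-109743236), was 1006 CPM in replicate 1 and 1425 in replicate 2. Mir134, in an exon (chr12:109734139-109734209), was 964 and 930 CPM. Its miRNA limits dendritic spine size in neurons through Limk1. Mir369 was 489 and 765 CPM and Mir154 562 and 629. Mir485, whose miRNA acts on the synaptic vesicle protein SV2A, was 271 and 267 CPM, and its neighbour Mir668 153 and 308.

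Members next to each other in Mirg could differ widely. Mir412, the next gene after Mir409, was 40.0 and 30.6 CPM. Mir496a was 78.7 CPM in replicate 1 and 78.8 in replicate 2, its library values the closest of any tested member relative to their mean. Mir410, which with Mir382 and Mir369 carries UACUUG, was 56.2 and 72.7 CPM, and Mir3072 at the end 46.0 and 56.0. Mir377 was 43.3 and 44.2 CPM. Mir453, which shares its seed with miR-496a-5p, had no count.

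**Figure D2:**
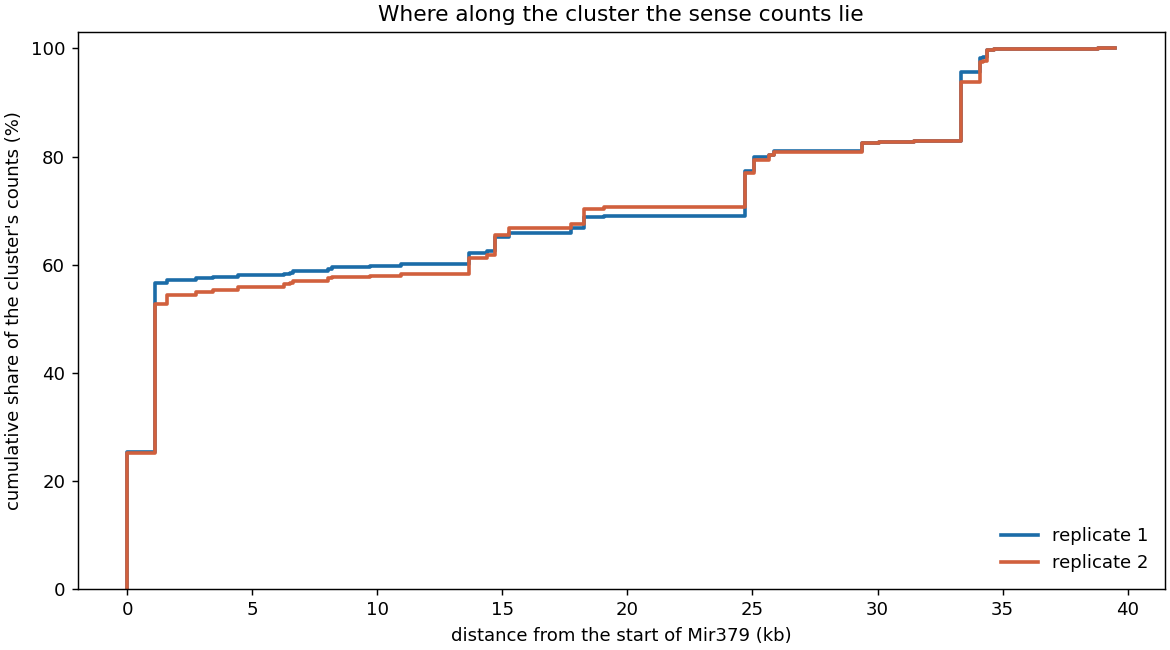
Cumulative share of the cluster's sense counts (%) along the distance in kb from the start of Mir379, with 1 line for each replicate. Both lines jump at Mir379 and Mir411, where they reach 56.6% and 52.7%, and again at Mir382 and Mir541.

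Level did not follow position in a simple way. Over the 39 members the Spearman correlation between level and distance from Mir379 was -0.060, given as a description because the members share their libraries. Between level and hairpin GC content it was -0.263. The order of the members was alike in both libraries, with a Spearman correlation of 0.976 across members. Down to 100 CPM there were 24 pairs of neighbours in the order of mean level, and 18 of them had overlapping ranges. The 6 steps without overlap were the 4 from Mir411 through Mir379, Mir541 and Mir382 to Mir409, that from Mir381 to Mir485 and that from Mir666 to Mir543. The places from Mir409 to Mir381 are therefore not separated step by step by these libraries.

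Behind sums that were nearly equal in sense CPM, members moved in opposite directions. Each gene of 10 counts or more was compared between the libraries by an exact two-sided binomial test with Benjamini-Hochberg adjustment over all 413 genes tested. This test compares these libraries, not conditions. Of 35 members tested, 19 were higher in replicate 2, 4 were lower and 12 did not pass. Among all genes tested 55.4% passed, 28.8% higher and 26.6% lower, so the members' share of lower calls (11.4%) was under the background and their share of higher calls (54.3%) over it. The median log2 ratio of replicate 2 to replicate 1 was 0.28 for the members and 0.03 for all genes tested. The common biological coefficient of variation that edgeR estimated over all tested genes was 38.0%, and a binomial call covers counting error only, not this spread.

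**Figure D3:**
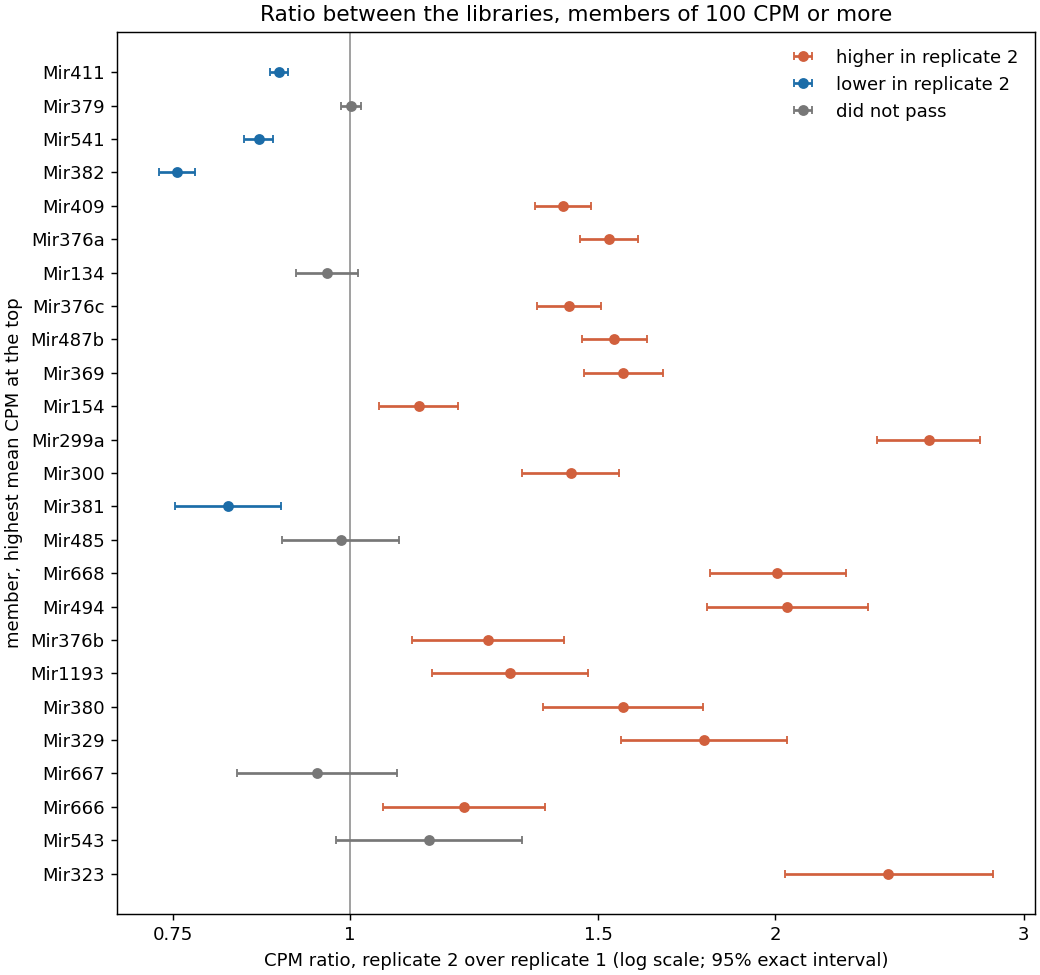
Ratio of CPM in replicate 2 to replicate 1 (log scale) for the 25 members of 100 CPM or more, ordered by mean level with the highest at the top, with exact 95% intervals for counting error and colours for the adjusted binomial test. The 4 lower calls Mir411, Mir541, Mir382 and Mir381 lie left of 1, as do Mir134, Mir485 and Mir667, which did not pass, and Mir299a is farthest right at 2.57.

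The members lower in replicate 2 were Mir411, Mir541 and Mir382, among the 4 most abundant, and Mir381 of middle level. Mir382 was 1.32-fold lower (1.29 to 1.36), Mir381 1.22-fold (1.12 to 1.33), Mir541 1.16-fold (1.13 to 1.19) and Mir411 1.12-fold (1.11 to 1.14). Mir379 had a ratio of 1.00 (0.987 to 1.02) and Mir134 one of 0.965 (0.917 to 1.01), and neither passed. The adjusted p of the exact binomial test was 6.81e-77 for Mir382, 1.51e-05 for Mir381, 1.32e-35 for Mir541 and 5.78e-53 for Mir411. None of the 4 lower calls reached 1.5-fold, while 11 of the higher ones did, against 13.1% of all genes tested called lower and 14.3% called higher at that size.

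The 19 members higher in replicate 2 ranged widely in size. Mir299a was 2.57-fold higher (2.36 to 2.80), Mir323 2.40-fold (2.03 to 2.85), Mir494 2.04-fold (1.79 to 2.33) and Mir668 2.01-fold (1.80 to 2.24). Their adjusted p in the exact binomial test was 9.24e-123, 2.79e-27, 1.35e-28 and 9.05e-38. These 4 are the members of 100 CPM or more that differed 2-fold. That is 4 of 25 higher and 0 lower, where among all 189 genes of that level 7.94% were 2-fold higher and 6.88% 2-fold lower. Mir329 followed at 1.78-fold, and Mir369, Mir380, Mir487b, Mir376a, Mir300, Mir376c and Mir409 lay between 1.42 and 1.56-fold, as did Mir539 at 1.53-fold. The smallest were Mir1193 at 1.30-fold, Mir410 at 1.29, Mir376b at 1.25, Mir666 at 1.21 and Mir154 at 1.12, all below the 1.32-fold of the lower call Mir382. Mir544 was 6.98-fold higher on 2 and 16 counts, with a counting interval from 1.64 to 62.6.

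**Figure D4:**
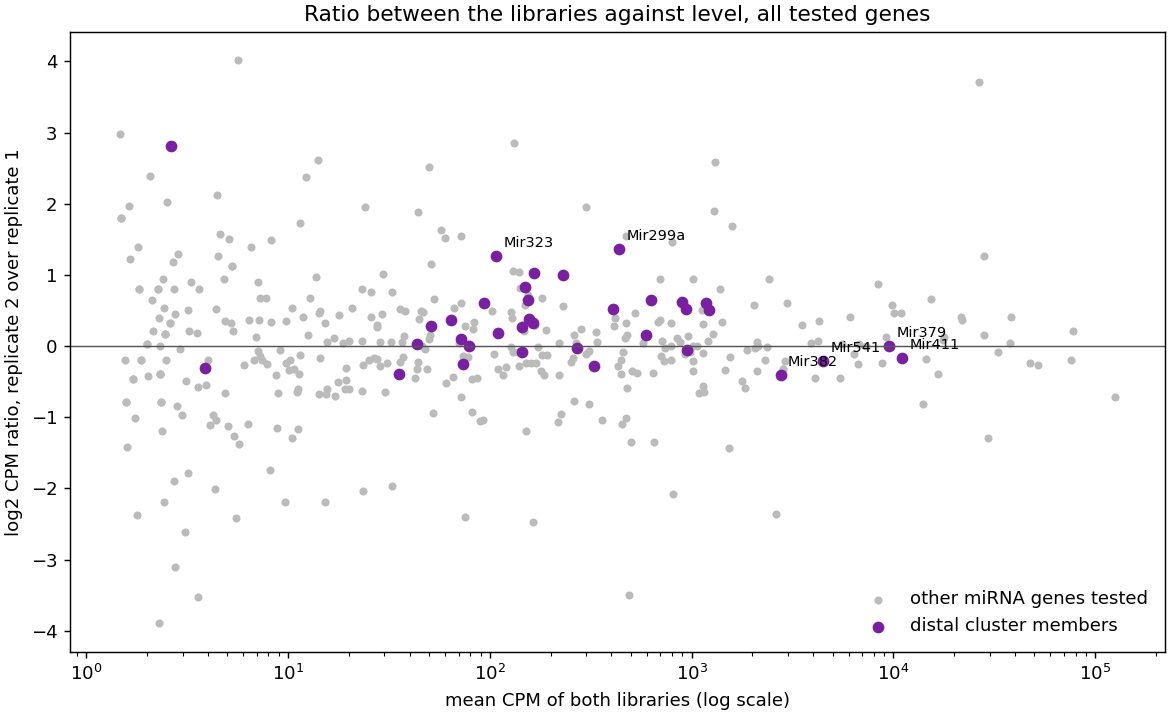
Log2 ratio of CPM in replicate 2 to replicate 1 against mean CPM (log scale) for the 413 genes tested, with the 35 tested members in purple and all others in grey. Most members between 100 and 2000 CPM lie above 0, whereas Mir411, Mir541 and Mir382 lie below it.

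The members of at least 2000 CPM, a limit chosen after the ratios were seen, summed to 29196 CPM in replicate 1 and 26509 in replicate 2, with 0 higher, 3 lower and 1 that did not pass. Nearly every gene of that level passed the test on its counts: 47.3% of all 55 were higher and 41.8% lower, so 3 calls among 4 members are no more than usual there. The 35 members below it summed to 8357 and 11423 CPM, a ratio of 1.37 (1.35 to 1.39). Of the 21 members from 100 to 2000 CPM, 16 were higher, 1 was lower and 4 did not pass, and their median log2 ratio was 0.52. Among all 134 genes of that range 42.5% were higher and 36.6% lower. The 113 other miRNA genes of that range had 41 higher and 48 lower, with a median of -0.05. The Spearman correlation between log2 ratio and level over the 25 members of 100 CPM or more was -0.392, and -0.043 over all 189 genes of that level. The correlation of the log2 ratio with distance along the cluster was -0.158 and with hairpin GC content -0.078 over the 35 tested members. Among the 16 tested genes of the upstream group 5 were higher and 6 lower, and its leading gene Mir127 went from 15477 to 13585 CPM.

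The shifts of Mir122, Mir451a and Mir126a given above fell on the same libraries, and their part in these ratios was not tested. With the total taken without Mir122, 22 members were higher and 4 lower, and the higher calls gained were Mir379, Mir543 and Mir3072. All genes shifted the same way under that total, with 33.7% higher and 23.0% lower. Under that scaling or edgeR's TMM, the sign of the ratio changed for Mir379, Mir134, Mir485 and Mir496a, none of which had passed.

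The strand column changed more calls than TMM or the total without Mir122 did. Opposite Mir299a, Mir380, Mir376a, Mir539 and Mir409 the annotation holds a miRNA gene on the minus strand, which makes a read there ambiguous when strand is ignored. In the unstranded column Mir380, Mir376a, Mir539 and Mir409 were listed at 0 in both libraries, and Mir299a at 0 and 6 counts. In the sense column these 5 genes held 7193 counts in replicate 1 and 13094 in replicate 2. With unstranded counts 30 members were tested, and 10 were higher and 10 lower, whereas 82.6% of the calls with sense counts were higher. Over all 387 genes tested on that column 19.1% were higher and 35.9% lower, so the move towards lower calls was shared by the other genes. The lower calls gained were Mir379, Mir134, Mir485, Mir667, Mir412 and Mir495. Higher calls were lost for the 5 genes above, which had too few counts in that column to be tested, and for Mir154, Mir410, Mir666 and Mir376b. Apart from those 5 genes, every member had the same counts in the unstranded and sense columns. The calls of these other members therefore changed only with the library totals and the set of genes tested. The unstranded column also moved the median log2 ratio of all genes by -0.17, to -0.14, and the median of the members was then 0.04.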

How the data were processed

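MicroRNA-seq counts of 2 adrenal libraries were used, 1 group without a contrast. The authors deposited raw read counts per miRNA gene, 1 file per library, with 3 count columns (unstranded, sense, opposite strand, as judged from the values) and 4 summary rows. The notes deposited with the files name mm10 and GENCODE M21, while the aligner and the counter were not given in the sources used here. Rows that name no gene, 57.8% and 59.1% of reads, stayed out of totals and tests. All 2202 identifiers matched GENCODE M21, and none of the files was normalized. Hairpin sequences came from GENCODE M21 transcripts and mature sequences from RefSeq (GRCm38.p6).

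Sense counts were scaled to CPM over all miRNA genes. Levels are per library or mean ± SD (n = 2). No test of levels was made, since an exact two-sided sign-flip test of 2 libraries cannot go below p = 0.5. The binomial test, the 10-count minimum and the 0.05 threshold were applied to the whole table. Intervals are exact (Clopper-Pearson or conditional, 95%). Simulated counts with known changes served to check the binomial calls. They held counting error only, so the check does not cover further spread between libraries. Shared stretches were searched on both strands, overlapping genes left out. Members of 100 CPM or more were named with both values, and the lower ones named or given in ranges. The 3 members with the largest ratio in each direction got an interval, and further intervals were added after the values were seen. The members and lists were chosen with earlier results of these data known. Alternatives were unstranded counts, TMM, DESeq2's size factors, totals without Mir122 or over all reads, other limits and minimums, leaving out genes with shared stretches, and each library alone. Those for the upstream group and for the members under 2000 CPM were chosen after seeing the data. Scaling factors and dispersion came from edgeR 4.0.16 and DESeq2 1.42.0 under R 4.3.3. Exact tests came from SciPy 1.17.1 and their adjustment from statsmodels 0.14.6. Tables were handled in pandas 2.3.3 with NumPy 2.4.6 (Python 3.11.15), and plots drawn with matplotlib 3.10.9.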

Additional observations from a re-analysis of the deposited data

Results flagged for a closer look

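Counts on the strand opposite to the 39 members, which no comparison uses, were 1 in replicate 1 and 5 in replicate 2. The 5 counts are above the limit of 3 counts, and the series has no control group for comparison. All of them lay at Mir299a, where Mir299b is annotated on the minus strand, and the other 38 members had no opposite-strand count. With 1 group of 2 libraries, no outlying sample and no contrast of groups could be examined.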

How the results depend on the processing

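The cluster's sum of 37743 ± 268 CPM (SD, n = 2) was 47219 ± 4112 with unstranded counts and 38801 ± 1563 with the total without Mir122. In both settings the libraries were less alike than with sense counts over all miRNA genes. In the unstranded column no member had more counts than in the sense column, and 5 had fewer. The higher unstranded CPM came from a smaller total, with 902374 ambiguous reads in replicate 1 and 794418 in replicate 2. The sum was 15669 ± 241 CPM of all reads in the file. Without the 5 members that share a 20-base stretch, Mir411 among them, it was 24661 ± 641. The main sum lay between 37553 and 37932 in the single libraries, and TMM and DESeq2's size factors moved it by less than the SD. Unstranded counts gave 10 members higher and 10 lower in replicate 2, where all 387 genes tested gave 74 and 139. A limit of 1.5-fold gave 11 higher and 0 lower, where all 413 gave 59 and 54. The other alternatives gave 16 to 22 members higher and 3 or 4 lower, and none of these settings turned round a call of the main comparison. Mir379, which had not passed there, was called higher with the total without Mir122 and lower with unstranded counts. The share held by Mir411 and Mir379 was 59.5% with unstranded counts and 38.7% without the shared-stretch members, where Mir379 alone is left, and 52.7% and 56.6% in the single libraries. The Spearman correlation of level with position was -0.019 with unstranded counts, and -0.076 and -0.031 in the single libraries. Detected members ranged from 29 to 35 over the limits and columns tried. The ratio of distal to upstream counts was 1.60 to 1.74 in the single libraries. The members under 2000 CPM summed to 8357 and 11423 CPM in the single libraries. No paired analysis was possible because there is only 1 group. With 2 libraries the depth limits counting error only, and the spread between animals stays poorly known.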
